A study of Mus musculus with 9 samples.

Results

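The 8 genes described here encode transcription factors, or partners of them, that shape the dendritic cell (DC) lineage: Zbtb46, Batf3, Id2, Bcl11a, Cbfa2t3, Runx3, Bcl6 and Nfil3. They were chosen by name from what is known of DC development, with earlier results of these data already known. Each was read from the probe sets whose only gene symbol in the platform annotation is that gene. The brightest probe set stood for a gene, which gave 8 of the 19938 genes measured. Cbfa2t3 had 2 such probe sets and the other 7 genes had 1 each.

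RNA was measured on 9 Affymetrix arrays, 3 for each of 3 sorted mouse populations. All 3 populations came from mice that carry 1 copy of the Cx3cr1 gfp allele (genotype CX3CR1 gfp+/-), in which a green fluorescent protein (GFP) reporter stands in the fractalkine receptor gene, so the controls share this allele too. T cell zone macrophages (TZM) came from lymph nodes, with bright GFP, CD11b and MertK and without CD169. Microglia, the macrophages of the brain, were sorted on bright GFP, CD11b and CD45. The CD8a+ DC were CD64 negative, bright for CD11c and MHC class II, and positive for CD8a. The sample labels place these DC in the lymph node while the sorting text places them in the spleen, so TZM and DC may or may not share an organ. Age, sex and any pooling of animals were not stated in the labels. Replicates were labelled as biological, and no label says which animals they came from, so p-values measure the spread between these arrays. None of the 8 genes encodes a sort marker.

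Conventional DC, the cells that carry antigen to T cells, arise from bone marrow progenitors under a chain of factors. ZBTB46 is a repressor found in conventional DC and their committed precursors and is widely used to tell them from macrophages. In progenitors that become type 1 conventional DC, the CD8a+ kind, NFIL3 lowers ZEB2, loss of ZEB2 frees ID2, ID2 blocks E proteins, and BATF3 then keeps IRF8 on. BCL11A acts in earlier progenitors and in plasmacytoid DC, BCL6 is needed for type 1 DC, CBFA2T3 is a co-repressor of the ETO family, and RUNX3 is needed by Langerhans cells and cytotoxic lymphocytes.

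Promoter windows of these genes, 250 bases before to 50 bases after an annotated start, were taken from RefSeq (build GRCm38.p6), which held 11 windows for the 8 genes. The 3 stretches shown each end at the outermost annotated start of their gene. They belong to Batf3, Id2 and Runx3, which stand for the AP-1 partner, the E protein inhibitor and the gene whose TZM level lay nearest to that of DC. Each holds the 250 bases before the start. The Batf3 stretch is chr1:191098164-191098413 on the plus strand, with the match to GAGGAA, a core recognised by PU.1, in capitals. The Id2 stretch is chr12:25096093-25096342 on the minus strand, with the E-box, CANNTG, in capitals. The Runx3 stretch is chr4:135120395-135120644 on the plus strand, with matches to TGTGGT, a RUNX core, in capitals, read here as ACCACA from the other strand.
Batf3: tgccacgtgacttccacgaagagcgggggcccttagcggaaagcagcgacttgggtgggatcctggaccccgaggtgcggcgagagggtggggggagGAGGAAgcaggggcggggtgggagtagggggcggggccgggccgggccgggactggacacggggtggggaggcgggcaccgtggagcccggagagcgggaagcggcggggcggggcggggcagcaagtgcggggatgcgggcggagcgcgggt
Id2: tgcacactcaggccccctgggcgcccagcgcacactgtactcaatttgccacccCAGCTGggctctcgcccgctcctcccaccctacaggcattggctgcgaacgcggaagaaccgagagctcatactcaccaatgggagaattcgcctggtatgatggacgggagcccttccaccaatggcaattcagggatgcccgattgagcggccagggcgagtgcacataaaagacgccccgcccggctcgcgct
Runx3: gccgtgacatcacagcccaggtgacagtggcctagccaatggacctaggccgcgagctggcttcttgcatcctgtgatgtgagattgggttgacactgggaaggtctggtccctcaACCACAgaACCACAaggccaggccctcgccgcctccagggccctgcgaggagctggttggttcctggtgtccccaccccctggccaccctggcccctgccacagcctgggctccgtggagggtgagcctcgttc

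The Runx3 window held the RUNX core in 2 copies, which begin at -134 and -126 counted from the start, and no other window of the 8 genes held it. The same core stood in 16.8% of all 32851 promoter windows. The PU.1 core lay at -153 of the Batf3 start and was also found in a window of Cbfa2t3 and of Bcl6, against 28.3% of all windows. E-boxes stood in 10 of the 11 windows, against 72.3% of all. The Id2 E-box began at -196. An AP-1 element, TGANTCA (7.81% of all windows), was matched in the Zbtb46 window, at -61 of a start that lies 68874 bases inside the annotated gene. No window of the 8 genes held a pair of GAAA boxes spaced by 2 bases (an interferon response type element, 3.44% of all), TTANGTAA (the D-box bound by NFIL3, 2.32%) or TTCNTAGAA (a BCL6 type element, 1.07%). Both strands were searched. Such matches are descriptions of letters, with no measurement of binding in these data.

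All 8 genes had their highest mean level in DC. In 6 of them, Zbtb46, Batf3, Id2, Bcl11a, Runx3 and Nfil3, the order was DC, TZM, microglia, and in Cbfa2t3 and Bcl6 it was DC, microglia, TZM. Between TZM and DC, 6 of the 8 genes were lower in TZM by limma (Benjamini-Hochberg adjusted p under 0.05 and a difference of at least 1 on the log2 scale). Among all genes tested, 4.03% were called lower and 4.71% higher in that comparison. None of the 8 was called higher, and at an unadjusted p under 0.05 none was higher and 8 were lower. Between microglia and DC, 7 of the 8 were lower in microglia, against 6.01% of all genes called lower and 5.15% called higher. Here too none of the 8 was called higher, and at an unadjusted p under 0.05 none was higher and 8 were lower. The 8 genes were not chosen blind to these data, so the shares of all genes are a background and not a test.

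Between TZM and microglia, Runx3 and Nfil3 were higher in TZM and Bcl6 was lower, against 4.25% of all genes called higher and 3.4% called lower. The other 5 were not called, and at an unadjusted p under 0.05, 5 of the 8 were higher in TZM and 1 was lower. The median difference of the 8 genes was -1.41 for TZM minus DC, 0.32 for TZM minus microglia and -2.10 for microglia minus DC, where the median of all genes was 0.02, 0.01 and 0.01. Arrays of TZM and DC did not overlap for 8 of the 8 genes, nor did those of microglia and DC, and those of TZM and microglia did not overlap for 5. Over all genes the share without overlap was 32.3%, 37.8% and 30.5%. The 3 comparisons share arrays, so their differences are set side by side and are not independent of one another. In sorted bulk RNA, fewer cells of a type and less RNA per cell cannot be told apart.

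**Figure D1:**
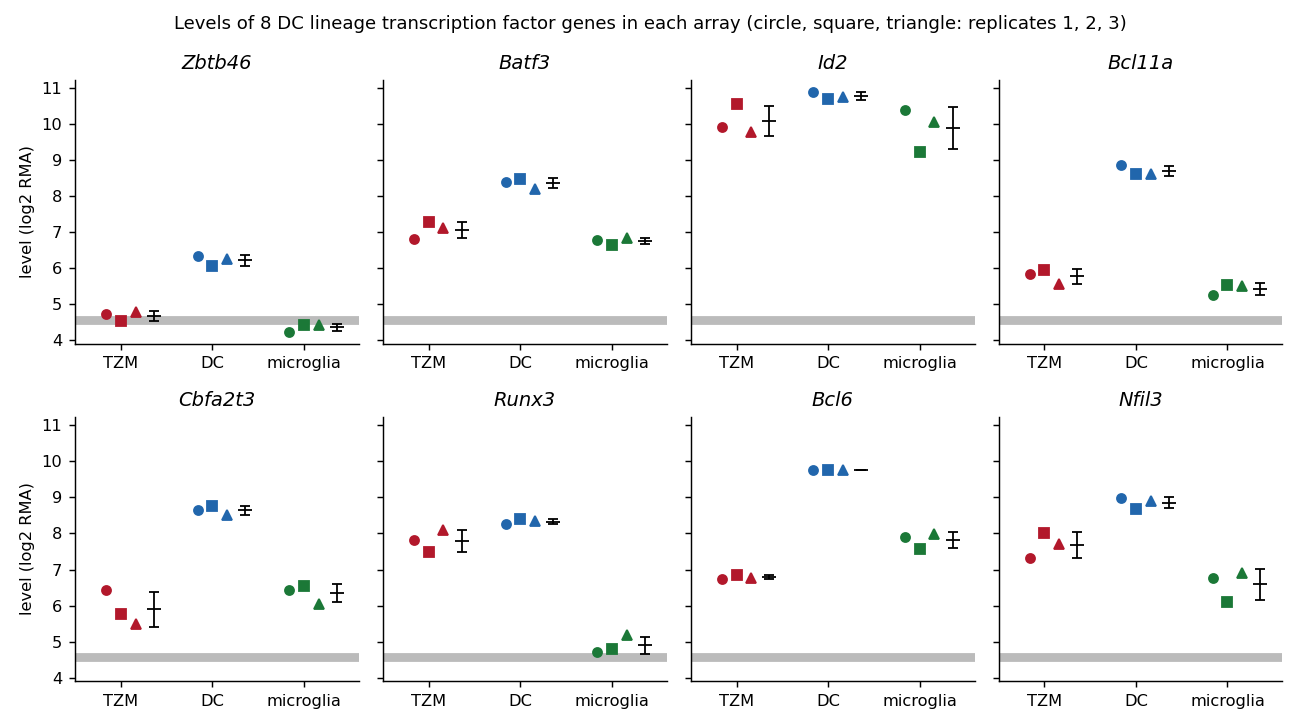
Level of each of the 8 genes (log2 RMA value) in each of the 9 arrays, with circles, squares and triangles for replicates 1, 2 and 3 and with the group mean and SD (n = 3) beside them. The grey band is the range over arrays, 4.47 to 4.65, of the 95th percentile of olfactory receptor genes, and Zbtb46 in microglia lies below it while DC lie above all other groups in each panel.

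Levels are log2 RMA values of a gene's probe set, and since probe sets respond differently, levels were compared between populations and not between genes. As a low reference, the 1027 olfactory receptor genes on the array, which these cells are not known to use, had a 95th percentile between 4.47 and 4.65 per array. All of the 8 genes other than Zbtb46 were above that percentile in all 9 arrays.

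Zbtb46 (chromosome 2, 181371009 to 181493262, RefSeq gene bounds on GRCm38.p6, as for the other genes), the factor used to mark conventional DC, was at 6.35, 6.06 and 6.25 in the DC arrays. TZM arrays read 4.74, 4.53 and 4.79, and microglia arrays 4.25, 4.42 and 4.42. The DC arrays stood clear of the other 6, and the TZM arrays lay just above microglia without overlap. Against the olfactory receptor percentile of the same array, Zbtb46 was above it in 3 of 3 DC arrays, 2 of 3 TZM arrays and 0 of 3 microglia arrays, so the macrophage levels lie near the floor of the scale and differences from DC may be understated. Means were 6.22 ± 0.15 (SD, n = 3) in DC, 4.69 ± 0.14 in TZM and 4.36 ± 0.10 in microglia. DC exceeded TZM 2.90-fold, a log2 difference of -1.53 for TZM minus DC (SE 0.10, adjusted p = 1.1e-05), and microglia 3.62-fold. TZM minus microglia was 0.32 (95% interval 0.09 to 0.56, adjusted p = 0.062) and was not called.

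Batf3 (chromosome 1, 191098414 to 191108943), whose product pairs with JUN proteins at composite sites with IRF factors, read 8.40, 8.48 and 8.20 in DC. In TZM it read 6.82, 7.27 and 7.11, and in microglia 6.78, 6.65 and 6.83. The DC arrays lay above all others, while the lowest TZM array fell within the microglia range. DC averaged 8.36 ± 0.15 (SD, n = 3), TZM 7.07 ± 0.23 and microglia 6.75 ± 0.09. The level was 2.45-fold higher in DC than in TZM (log2 difference -1.29, SE 0.12, adjusted p = 1.1e-04) and 3.04-fold higher than in microglia (-1.61, SE 0.12, adjusted p = 2.0e-05). TZM minus microglia was 0.31 (SE 0.12, adjusted p = 0.126).

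The partners of BATF3 went both ways. Of 7 genes of the BATF family and its JUN and IRF partners, 2 were higher and 0 lower in TZM than in DC, and at an unadjusted p under 0.05 there were 3 in each direction. Jun, an immediate early gene and AP-1 subunit, read 9.42, 9.45 and 9.37 in DC, 11.05, 10.97 and 10.99 in TZM, and 11.92 to 12.17 in microglia, the reverse of the Batf3 order. TZM exceeded DC by 1.59 on the log2 scale (adjusted p = 1.3e-06) and microglia exceeded DC by 2.61 (adjusted p = 4.9e-08). The difference between TZM and microglia was -1.02, and without microglia replicate 1, or without replicates 1 and 3, it was no longer called. Irf8, needed throughout type 1 DC life, was at 10.6 ± 0.05 in DC, 9.71 ± 0.01 in TZM and 9.24 ± 0.21 in microglia. Microglia were lower than DC by 1.41 (adjusted p = 1.3e-05), and TZM minus DC was -0.93, under the minimum of 1 (adjusted p = 2.2e-04). Batf2, an interferon-induced relative that can stand in for BATF3, exceeded microglia in TZM by 1.38 (adjusted p = 4.1e-04). It was also called higher in TZM than in DC, just past the minimum of 1 (6.53 ± 0.33 against 5.53 ± 0.07, SD, n = 3), a call that ended under median centring, quantile normalization, array weights, or without TZM replicate 2, TZM replicate 3 or DC replicate 2.

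Id2 (chromosome 12, 25093799 to 25096092), which binds E proteins and keeps them off DNA, was at 10.89, 10.68 and 10.75 in DC. TZM arrays read 9.91, 10.56 and 9.76, and microglia arrays 10.38, 9.23 and 10.05. The DC arrays lay close together and above the rest, and the TZM and microglia arrays were widely spread and interleaved. Means were 10.78 ± 0.11 (SD, n = 3) in DC, 10.08 ± 0.42 in TZM and 9.89 ± 0.59 in microglia. None of the 3 comparisons was called. TZM minus DC was -0.70 (95% interval -1.38 to -0.02, adjusted p = 0.158), TZM minus microglia was 0.19 (-0.49 to 0.87, adjusted p = 0.757) and microglia minus DC was -0.89 (-1.57 to -0.20, adjusted p = 0.064). Without microglia replicate 1 the last became -1.13 and was called (adjusted p = 0.031), as it was without microglia replicates 1 and 3 (-1.54, adjusted p = 0.018).

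Arrays that stood apart for Id2 also differed in markers of other cells. Id2 was lowest in microglia replicate 2, where Ttr, made by the choroid plexus, was at 5.48 against 12.15 and 11.83 in replicates 1 and 3. In TZM, Id2 was highest in replicate 2, where the neutrophil gene S100a8 was at 9.28 against 5.89 and 7.32 in replicates 1 and 3. Those replicates ranked oppositely for Id2, at 9.91 and 9.76. Summed levels of 5 choroid plexus genes ran from 22.9 to 31.3 in microglia arrays, 21.2 to 21.8 in TZM arrays and 21.0 to 21.5 in DC arrays, with 3, 1 and 2 of the 5 above the olfactory receptor percentile in all arrays of the group. The sums of 6 neutrophil genes ran from 28.4 to 36.5 across TZM arrays, 24.6 to 25.5 across DC and 23.8 to 24.4 across microglia, with 3, 1 and 0 of the 6 above it. Of these 6, S100a8 and S100a9 alone were called higher in TZM than in DC. Ly6g and Retnlg were above the percentile in none of the TZM arrays. Of the choroid plexus genes, Ttr alone was called between microglia and DC. The part of such cells in the Id2 levels was not tested.

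The E proteins that ID2 restrains were read from a list of 6 other Id and E protein genes, of which 2 were higher and 0 lower in TZM than in DC (at an unadjusted p under 0.05, 3 higher and none lower). Tcf4, which encodes E2-2, the E protein that drives plasmacytoid DC, was at 7.52 ± 0.12 (SD, n = 3) in DC, 9.04 ± 0.36 in TZM and 9.01 ± 0.07 in microglia. Both macrophage populations exceeded DC, TZM by 1.51 (adjusted p = 2.2e-04) and microglia by 1.49 (adjusted p = 1.7e-04). The level in TZM minus that in microglia was 0.02 (adjusted p = 0.96). Tcf3, the gene of E2A, was higher in TZM than in microglia by 1.31 (adjusted p = 0.0023). It exceeded DC by 1.01, and that call ended under median centring, quantile normalization, or without TZM replicate 1, TZM replicate 3 or DC replicate 2.

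Bcl11a (chromosome 11, 24076564 to 24173558), a zinc finger factor of lymphoid and DC progenitors, read 8.87, 8.60 and 8.61 in DC. It read 5.83, 5.95 and 5.55 in TZM and 5.25, 5.53 and 5.50 in microglia. DC arrays stood far above the rest, and TZM lay narrowly above microglia without overlap. Group means were 8.69 ± 0.15 (SD, n = 3), 5.78 ± 0.20 and 5.43 ± 0.15. The DC level was 7.54-fold that of TZM (log2 difference -2.91, SE 0.13, adjusted p = 9.4e-07) and 9.63-fold that of microglia (-3.27, SE 0.13, adjusted p = 3.3e-07). TZM minus microglia was 0.35 (adjusted p = 0.098) and was not called. Bcl11a is also used by plasmacytoid DC and B cells. The summed level of 5 plasmacytoid DC genes was 34.6 to 35.6 in DC, 26.7 to 28.1 in TZM and 24.4 to 24.9 in microglia, with 5, 3 and 3 of the 5 above the olfactory receptor percentile in all arrays. For 6 B cell genes the sum was 32.6 to 33.0 in DC, 32.6 to 32.8 in TZM and 27.4 to 29.0 in microglia, with 3, 3 and 2 above it. The like sums of DC and TZM hide opposite differences. Ms4a1 and Fcrla were called lower in TZM than in DC (-2.29 and -1.87) and Cd79b higher (2.65), with 3 not called. The part of either cell type in the Bcl11a levels was not tested.

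Cbfa2t3 (chromosome 8, 122625136 to 122699332), also known as ETO2, was at 8.64, 8.76 and 8.52 in DC. TZM arrays read 6.42, 5.78 and 5.48, and microglia arrays 6.42, 6.54 and 6.06. The DC arrays again lay well above the others, and here TZM were at or below microglia with overlap. DC averaged 8.64 ± 0.12 (SD, n = 3), TZM 5.89 ± 0.48 and microglia 6.34 ± 0.25. DC were 6.73-fold above TZM (log2 difference -2.75, SE 0.23, adjusted p = 4.4e-05) and 4.94-fold above microglia (-2.31, SE 0.23, adjusted p = 9.5e-05), and TZM minus microglia was -0.44 (95% interval -0.97 to 0.08, adjusted p = 0.251). The dimmer probe set of the gene disagreed in size. It gave 5.47 ± 0.09 in TZM, 5.97 ± 0.23 in DC and 5.71 ± 0.27 in microglia. In the limma fit over every probe set, TZM minus DC was -0.50 (adjusted p = 0.082) and microglia minus DC was -0.26 (adjusted p = 0.338), neither of them called. With the mean of both probe sets, which includes the brighter one, the differences from DC were -1.62 in TZM and -1.29 in microglia, still called.

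Other genes of the RUNX and ETO families, 4 measured, gave no call in any comparison by limma. At an unadjusted p under 0.05, 0 were higher and 1 was lower for TZM minus DC, 0 and 1 for TZM minus microglia, and 2 and 1 for microglia minus DC. The lower one against DC was Cbfb, the shared partner of RUNX proteins, at 8.79 ± 0.03 in DC, 7.89 ± 0.23 in TZM and 8.08 ± 0.17 in microglia. Relatives and co-repressors of BCL6 and BCL11A, 5 measured, gave no call either. At an unadjusted p under 0.05, 1 was lower in TZM than in DC, 1 lower in TZM than in microglia and 1 higher in microglia than in DC, with no others.

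Runx3 (chromosome 4, 135120645 to 135177990) was the gene in which TZM stood near DC. It read 7.82, 7.49 and 8.09 in TZM arrays, 8.26, 8.40 and 8.33 in DC arrays, and 4.72, 4.81 and 5.18 in microglia. The microglia arrays lay far below the other 6, and the highest TZM array stayed below the lowest DC array. The microglia mean was 4.90 ± 0.24 (SD, n = 3), that of TZM 7.80 ± 0.30 and that of DC 8.33 ± 0.07. TZM exceeded microglia 7.44-fold (log2 difference 2.90, 95% interval 2.52 to 3.27, adjusted p = 5.7e-06), and DC exceeded microglia 10.8-fold (microglia minus DC -3.43, adjusted p = 1.1e-06). TZM minus DC was -0.53 (-0.91 to -0.15, adjusted p = 0.055), which was not called and whose interval does not reach a difference of 1.

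Runx3 is also used by CD8 T cells, natural killer (NK) cells and innate lymphoid cells (ILC), so their markers are set beside it. The summed level of 7 T cell genes was 35.5 to 37.7 in the TZM arrays, 33.8 to 34.8 in those of DC and 31.9 to 32.1 in those of microglia, with 6, 5 and 4 of the 7 above the olfactory receptor percentile in all arrays. For 7 NK cell and ILC genes the sum was 31.6 to 34.9, 28.3 to 28.5 and 27.3 to 27.9, with 3, 1 and 1 above it. Gzma, a granzyme gene, read 4.86, 6.15 and 6.02 in TZM, against 3.25, 2.96 and 3.20 in DC and 2.94, 3.06 and 3.09 in microglia. Cd3e, a subunit of the T cell receptor complex, read 6.08, 5.97 and 6.38 in TZM, against 5.45, 5.77 and 5.59 in DC and 5.12, 5.23 and 5.34 in microglia. For both genes every TZM array was above all other arrays. Gzma was called higher in TZM than in DC and microglia, while Cd3e was called in neither comparison (0.53 and 0.91). Against DC, 0 of the 7 T cell genes were called, and 2 of the 7 NK cell and ILC genes were higher in TZM. At an unadjusted p under 0.05, 5 T cell genes were higher and 1, Cd5, was lower. For NK cell and ILC genes these counts were 5 and 0. Against microglia, 2 genes of each list were called higher in TZM and 0 lower. Within TZM, replicate 3, with the highest Runx3 level, had the highest T cell sum, 37.7 against 35.5 and 36.2, and the highest Cd3e level. Replicate 2, with the lowest Runx3 level, had the highest Gzma level. Their part in the TZM level of Runx3 was not tested.

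Signalling by TGF-beta, known to act with RUNX3 in T cells and Langerhans cells, was covered by 8 genes, of which 2 were higher and 0 lower in TZM than in DC. Against microglia, 0 were higher and 4 lower in TZM, and at an unadjusted p under 0.05 the counts were 1 and 4. Tgfbr1, a receptor subunit, was at 11.7 ± 0.03 (SD, n = 3) in microglia, 10.2 ± 0.05 in TZM and 7.61 ± 0.19 in DC, so TZM lay 2.61 above DC (adjusted p = 3.0e-07) and 1.44 below microglia. Tgfbr2, the ligand-binding subunit, was at 8.88 ± 0.50 in TZM and 9.04 ± 0.14 in microglia, against 6.94 ± 0.05 in DC. Smad7, an inhibitor induced by the pathway, was high in microglia alone (8.40 ± 0.18), with 5.92 ± 0.25 in TZM and 5.84 ± 0.29 in DC. These named genes were each higher in microglia than in DC, while Runx3 was lowest in microglia. Smad4, of the same list, was also lowest in microglia, at 7.64 ± 0.10 against 8.25 ± 0.22 in TZM and 8.15 ± 0.08 in DC, and was not called. Any relation of these genes to the Runx3 level was not tested.

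Bcl6 (chromosome 16, 23965050 to 23988866), a repressor of germinal centre B cells and follicular helper T cells that type 1 DC also need, was the gene in which TZM stood lowest. DC arrays read 9.76, 9.75 and 9.75, microglia arrays 7.91, 7.58 and 7.98, and TZM arrays 6.75, 6.86 and 6.76. The 3 populations formed 3 separate steps with no overlap. Means were 9.75 ± 0.0023 (SD, n = 3) in DC, 7.82 ± 0.21 in microglia and 6.79 ± 0.06 in TZM. DC exceeded TZM 7.82-fold (log2 difference -2.97, SE 0.10, adjusted p = 2.4e-07) and microglia 3.82-fold (-1.93, SE 0.10, adjusted p = 1.8e-06). TZM were below microglia by 1.03 (95% interval of TZM minus microglia -1.27 to -0.80, adjusted p = 1.4e-04), a 2.05-fold difference close to the minimum of 1. That call ended without microglia replicate 1 (-0.99, adjusted p = 0.0011), without replicate 3 (-0.96, adjusted p = 6.1e-04) and without both (-0.79, adjusted p = 0.0019), the adjusted p staying under 0.05. Microglia replicates 1 and 3 were the arrays with high Ttr, 12.15 and 11.83 against 5.48 in replicate 2, in which Bcl6 was lowest of the 3, and their part in this was not tested.

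Genes reported as repressed by BCL6 in B cells, 8 measured, went both ways. Of these, 2 were higher and 1 lower in TZM than in DC, and 3 were higher and 2 lower in microglia than in DC. Prdm1, the gene of BLIMP-1 and a classical BCL6 target, was at 4.65 ± 0.38 (SD, n = 3) in DC, 6.33 ± 0.20 in TZM and 6.62 ± 0.11 in microglia. It was lowest in DC, where Bcl6 was highest. TZM, with the lowest Bcl6 level, did not exceed microglia in Prdm1 (-0.29, adjusted p = 0.36). Both macrophage populations exceeded DC in Prdm1, TZM by 1.68 (adjusted p = 2.4e-04) and microglia by 1.97 (adjusted p = 6.8e-05). Cxcl10, an interferon-induced chemokine, was higher in TZM than in DC by 1.91 and than in microglia by 2.24 (adjusted p = 7.6e-04). Cdkn1b, a cell cycle inhibitor, went the other way. It was lower in TZM than in DC by 1.05, a call that ended without TZM replicate 3 or DC replicate 2. Cd44, an adhesion receptor, was at 9.65 ± 0.18 in TZM and 9.29 ± 0.03 in DC against 4.64 ± 0.22 in microglia. Prdm1 in DC and Cd44 in microglia were each above the olfactory receptor percentile in 1 of 3 arrays. Any relation of these genes to the Bcl6 level was not tested.

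Nfil3 (chromosome 13, 52967209 to 52982878), a basic leucine zipper repressor needed for type 1 DC, read 8.98, 8.67 and 8.90 in DC. It read 7.31, 8.01 and 7.72 in TZM and 6.76, 6.11 and 6.91 in microglia. The 3 populations did not overlap, with TZM between the others, and means were 8.85 ± 0.16 (SD, n = 3), 7.68 ± 0.35 and 6.59 ± 0.42. DC exceeded TZM 2.25-fold (log2 difference -1.17, 95% interval -1.71 to -0.63, adjusted p = 0.0076), and without TZM replicate 1 the difference was -0.99 and no longer called (adjusted p = 0.026). TZM exceeded microglia 2.13-fold (1.09, 0.55 to 1.63, adjusted p = 0.012). That call ended with array weights (0.90), without TZM replicate 2 (0.92) and without microglia replicate 2 (0.85), with adjusted p of 0.019, 0.033 and 0.023. Microglia minus DC was -2.26 (SE 0.24, adjusted p = 1.3e-04). Nfil3 was lowest in microglia replicate 2, the array with the low Ttr level of 5.48 beside 12.15 and 11.83, whose part in this was not tested.

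NFIL3 competes with PAR basic leucine zipper factors at D-boxes and is tied to the circadian clock. Of 15 PAR and clock genes, 3 were higher and 0 lower in TZM than in DC (at an unadjusted p under 0.05, 9 and none), and 3 were higher and 1 lower in microglia than in DC. Nr1d1, the gene of the clock repressor REV-ERB alpha, which is known to repress Nfil3, was at 5.05 ± 0.20 (SD, n = 3) in DC, 6.97 ± 0.22 in TZM and 6.67 ± 0.20 in microglia. TZM exceeded DC by 1.92 (adjusted p = 3.3e-05). Nr1d2, its relative, exceeded DC by 1.48 in TZM and by 1.95 in microglia (adjusted p = 4.7e-06). Bhlhe40 and Bhlhe41, related repressors, split between the macrophages. Bhlhe40 was lowest in microglia, at 4.50 ± 0.24, against 9.78 ± 0.14 in TZM and 8.41 ± 0.09 in DC. Bhlhe41 was highest in microglia, at 8.88 ± 0.25, against 3.93 ± 0.07 in TZM and 3.41 ± 0.14 in DC. Bhlhe40 in microglia was above the olfactory receptor percentile in 1 of 3 arrays, and Bhlhe41 in TZM and DC in none. Time of day at collection was not stated.

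**Figure D2:**
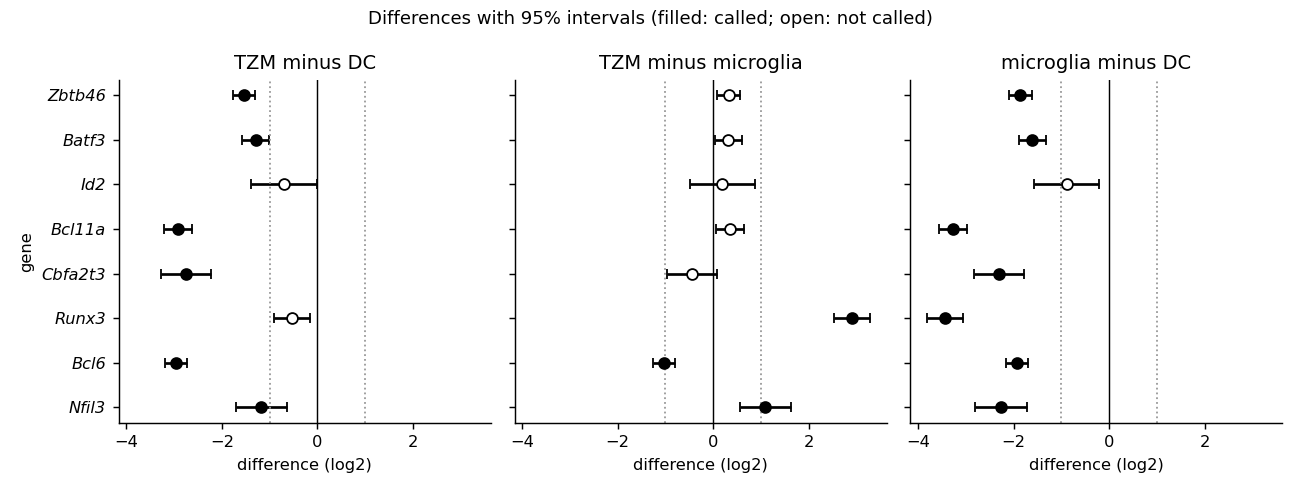
Difference in level (log2) between populations for each of the 8 genes, with 95% intervals from the limma fit, filled where called and open where not, and dotted lines at -1 and 1. Differences from DC all lie below 0 in the outer panels, and in the middle panel Runx3 stands at 2.90 and Nfil3 at 1.09 while Bcl6 stands at -1.03.

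Set on a scale where the microglia mean is 0% and the DC mean 100% of the log2 distance, the TZM mean stood at 84.5% for Runx3 and 48.2% for Nfil3. Zbtb46, Batf3, Id2 and Bcl11a stood at 17.4%, 19.6%, 21.3% and 10.8%. Cbfa2t3 stood at -19.2% and Bcl6 at -53.6%, below the microglia mean. TZM minus microglia was called for Runx3, Nfil3 and Bcl6 alone, so the other positions are not set apart from 0% by a call. For Id2 the distance from microglia to DC (0.89) was not called either. Zbtb46 in both macrophages and Runx3 in microglia lay near the floor of the scale. The single TZM arrays ran from -55.5% to -50.1% for Bcl6, from 3.96% to 16.03% for Bcl11a, from 8.89% to 22.9% for Zbtb46 and from 75.5% to 93.1% for Runx3. The ranges were wider for Batf3, from 4.39% to 32.4%, for Nfil3, from 31.8% to 62.9%, for Cbfa2t3, from -37.1% to 3.61%, and for Id2, from -14.1% to 75.3%. For Id2 and Cbfa2t3 the arrays lay on both sides of the microglia mean.

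**Figure D3:**
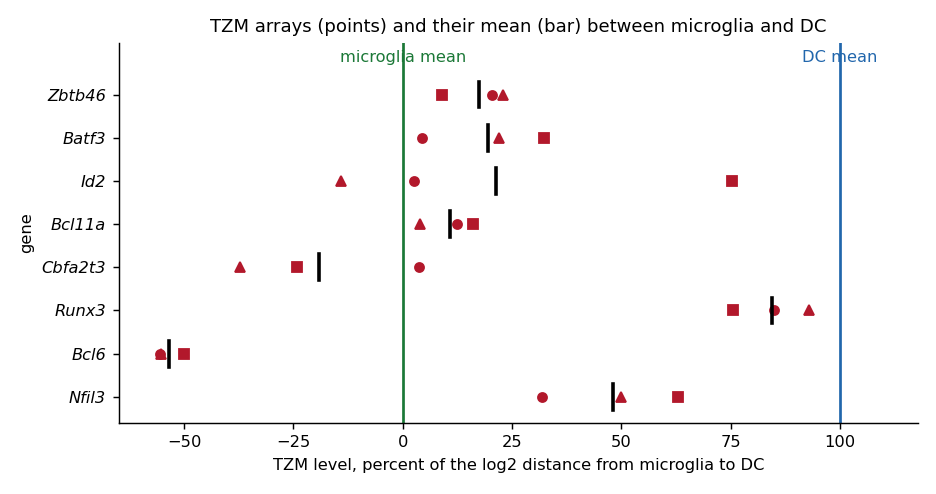
Position of each TZM array (circle, square and triangle for replicates 1, 2 and 3) and of the TZM mean (black bar) on the log2 distance from the microglia mean (0%) to the DC mean (100%), for each of the 8 genes. Runx3 lies at 84.5%, Nfil3 at 48.2%, and Bcl6 at -53.6%, on the far side of microglia.

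The regulators placed around these genes in DC development, 18 measured, divided by direction. In TZM 3 were higher and 4 lower than in DC, and the same counts held for microglia against DC. Zeb2, repressed by NFIL3 in DC progenitors, was at 5.23 ± 0.02 (SD, n = 3) in DC, 9.51 ± 0.09 in TZM and 9.21 ± 0.04 in microglia, higher than in DC by 4.28 (adjusted p = 7.1e-09) and 3.98 (adjusted p = 2.8e-09). Cebpa, a myeloid factor of progenitors and macrophages, followed the same pattern, at 5.69 ± 0.25 in DC, 8.78 ± 0.04 in TZM and 9.27 ± 0.12 in microglia. Rbpj, through which Notch acts in DC, was at 9.44 ± 0.14 in DC, 6.92 ± 0.13 in TZM and 7.93 to 8.04 in the microglia arrays. Like Bcl6, it was lowest in TZM. With the mean of its probe sets, TZM minus DC moved from -2.53 to -1.28 and stayed called, while TZM minus microglia (-1.08 to -0.58) and microglia minus DC (-1.44 to -0.70) were no longer called. Mycl, a MYC relative that DC use in place of MYC, was at 7.44 ± 0.08 in DC and lower in TZM, at 5.02 ± 0.25, and in microglia, at 5.37 ± 0.06. Myb, a factor of blood progenitors, was also lower in both, at 6.71 ± 0.15 in DC against 4.71 ± 0.07 and 4.49 ± 0.16. Against microglia, 0 of the 18 were higher and 2 lower in TZM (at an unadjusted p under 0.05, 4 and 7).

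Genes that mark conventional DC as a class were read from a list of 25, with 23 measured. In TZM 0 were higher and 22 lower than in DC (median difference -2.64), and in microglia 23 were lower (median -4.31). The one not called in TZM was Spint2. This list, like that of type 1 DC genes below, holds genes chosen as DC markers. Its counts against DC are therefore a description of the populations and not a test. Flt3, the growth factor receptor of DC, was at 10.6 ± 0.01 (SD, n = 3) in DC, 5.81 ± 0.10 in TZM and 5.17 ± 0.14 in microglia, and Kmo, an enzyme of tryptophan breakdown, at 8.87 ± 0.25, 4.05 ± 0.08 and 3.60 ± 0.19. Kmo was above the olfactory receptor percentile in none of the TZM or microglia arrays. Against microglia, 11 of the 23 were higher in TZM and 0 lower (at an unadjusted p under 0.05, 18 and 1). Slamf7, a receptor of the SLAM family, led them at 8.36 ± 0.13 in TZM against 4.61 ± 0.33 in microglia and 10.9 ± 0.07 in DC. Ccr7, the receptor that guides cells to the T cell zone, was at 8.99 ± 0.07 in TZM, 5.94 ± 0.76 in microglia and 10.9 ± 0.03 in DC.

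The type 1 DC genes, 12 measured, were all lower in TZM and in microglia than in DC, with medians of -3.50 and -4.03. Xcr1, the chemokine receptor of type 1 DC, was lower in TZM by 6.31, and Clec9a, a receptor for dead cells, by 6.17. In TZM these genes were above the olfactory receptor percentile in 1 and 2 of 3 arrays, so they lie near the floor there and the differences may be understated. Between TZM and microglia, 3 of the 12 were higher in TZM and 1 was lower. Ly75, the receptor DEC-205, was higher in TZM than in microglia by 3.30 and Cd24a by 3.04, while Tlr3, a sensor of double-stranded RNA, was lower by 2.12. In microglia Cd24a was above the olfactory receptor percentile in 0 of 3 arrays and Ly75 in 1 of 3, so these differences too may be understated. Cd24a is also a neutrophil gene, and its TZM level was 8.11 in replicate 2, where S100a8 was at 9.28, and 6.997 and 6.37 in replicates 1 and 3, with S100a8 at 5.89 and 7.32. Both genes were highest in replicate 2, but the other 2 arrays ranked oppositely for them. Their relation was not tested.

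**Figure D4:**
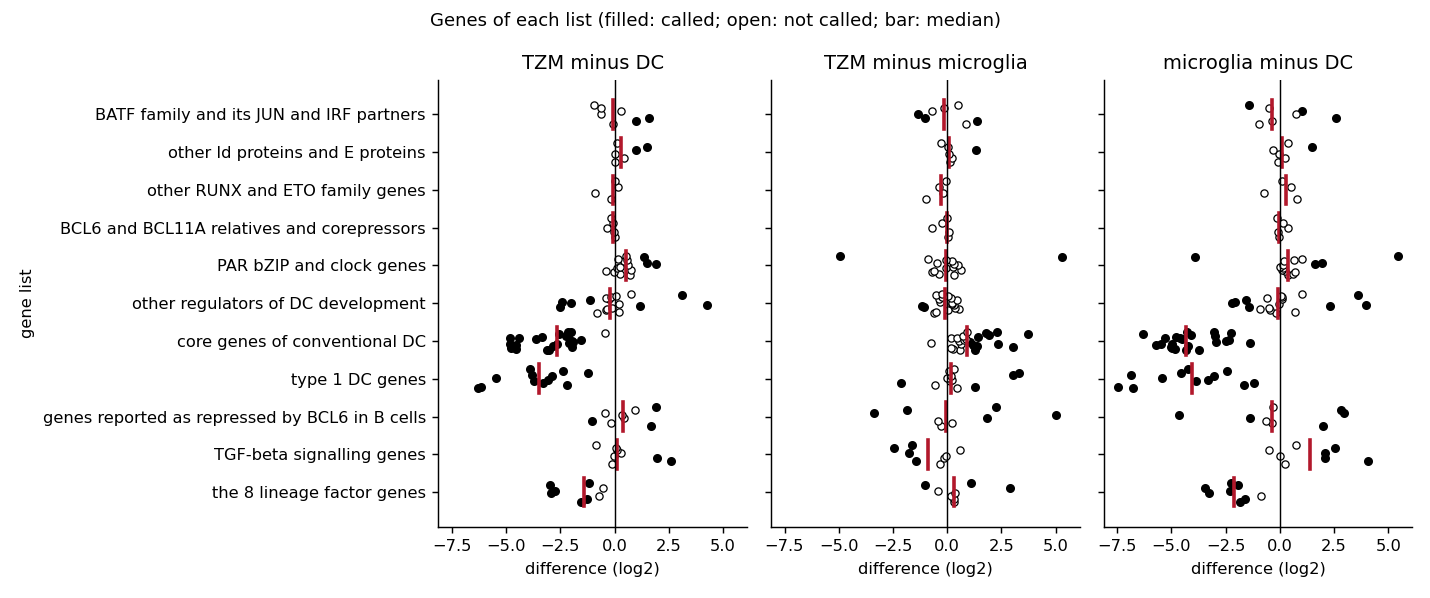
Difference in level (log2) of each gene of the lists, in the 3 comparisons, with filled points for called genes, open points for others and a red bar at the median. Core conventional DC genes and type 1 DC genes lie far below 0 against DC. Medians of the lists of partners and relatives of the 8 factors lie between -0.38 and 0.52. Single genes of these lists, such as Bhlhe40 and Bhlhe41, lie far from 0 on either side.

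Across the 9 arrays, pairs of the 8 genes rose and fell together to different degrees, given as a description since the arrays fall in 3 groups. Pearson correlations were 0.99 for Zbtb46 with Bcl11a, 0.98 for Batf3 with Bcl11a, and 0.95 for Bcl6 with Cbfa2t3. The lowest were 0.31 for Runx3 with Bcl6 and 0.47 for Runx3 with Cbfa2t3. The genes most like each of the 8, among 3079 named genes that varied over the arrays, were picked by the same measure over 9 arrays. Alms1, Tmem39a and Kit were most like Zbtb46 (0.998, 0.998 and 0.996). For Batf3 they were Cenpk, Alcam and B3gnt5 (0.994, 0.992 and 0.991), and for Bcl11a Lrrk2, Ly6d and Ctla4, each at 0.998. Cadm1, Gclc and Lrba came nearest to Bcl6 (0.993, 0.992 and 0.991), and Ppt1, Pdlim5 and Pafah1b3 to Cbfa2t3 (0.991, 0.988 and 0.985). Runx3 was matched by Cyfip2, Sik1 and Crip1, each at 0.993. Cyfip2 averaged 4.71 in microglia against 8.42 in TZM and 9.06 in DC. Nfil3 was nearest to Cycs, Psme1 and Idi1 (0.986, 0.983 and 0.982). The best match of Id2 was weaker, with Alyref at 0.954.

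The populations carried the markers of their labels. Summed over 7 macrophage genes, levels were 74.8 to 77.8 in TZM and 80.005 to 80.8 in microglia, against 37.1 to 39.4 in DC. Over 6 type 1 DC genes they were 63.6 to 63.9 in DC, against 37.6 to 38.2 in TZM and 37.7 to 38.1 in microglia. Over 7 microglia genes they were 75.9 to 76.7 in microglia, against 46.1 to 47.4 in TZM. No arrays were identical, and array medians ran from 4.90 to 5.02.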

How the data were processed

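RNA of 9 samples, 3 per population, was measured on 1-colour Affymetrix arrays. The values are log2 levels deposited by the authors, made with Affymetrix Expression Console 1.3.1 and RMA (background correction, normalization across arrays, summary per probe set), per the submitters' processing notes. The table held 35556 probe sets, 21789 of them with 1 gene symbol, 1621 with several and 12146 with none in the platform annotation, and only the first were used for genes. Of these, 21698 matched RefSeq (GRCm38.p6) by Entrez identifier. The brightest probe set stood for each of the 999 genes with more than 1. No filter or detection call was applied, and precision is limited by how few arrays there are.

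One linear model per gene was fitted over all 9 arrays, with population as its single term, by limma 3.58.1 (lmFit, then eBayes; R 4.3.3). P-values were Benjamini-Hochberg adjusted over 19938 genes, and a call needed an adjusted p under 0.05 and a difference of at least 1 (log2). The fit was tested on simulated data. The genes and gene lists were chosen with earlier results of these data known. Named list genes were up to 3 called genes per list and comparison. Cbfb, Spint2, S100a8, Gzma, Cd3e and Ttr were added after their values were seen. Alternatives were no minimum fold change, a level filter (6 in 3 arrays), median centring, quantile normalization, the mean of probe sets, every probe set, only the compared groups, eBayes with a trend and robust, weighted arrays, blocking on the replicate number, and leaving out each array. Leaving out microglia replicates 1 and 3 together was added after seeing the data, with the lone microglia array assumed to vary like the other groups.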

Additional observations from a re-analysis of the deposited data

How the results depend on the processing

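Over 20 alternative settings, 480 differences of the 8 genes were recomputed. Of these, 471 kept their side of the threshold, 7 lost a call, 2 gained one, and 3 changed sign, none of them called. The calls lost or gained were those of Nfil3, Bcl6 and Id2 given beside those genes. The 3 were the Id2 difference of TZM from microglia (0.19) with array weights (-0.03), without TZM replicate 2 (-0.05) and without microglia replicate 2 (-0.14). Over the settings 5 to 6 of the 8 genes were called between TZM and DC, 2 to 3 between TZM and microglia, and 7 to 8 between microglia and DC. With no minimum fold change, 4025 genes in all were called between TZM and DC (1743 with it), 3873 between TZM and microglia (1526) and 5006 between microglia and DC (2224). With every probe set tested, the counts for the last 2 were 2333 and 3440. Deviations from the group means correlated between same-numbered arrays from -0.15 to 0.13, over 0.1 in 1 of 9 pairs. Between differently numbered arrays they ran from -0.19 to 0.15. With so few arrays per group these values cannot settle whether same-numbered samples were paired, and no label says so. With the replicate block, 6, 3 and 7 of the 8 genes and 1732, 1510 and 2213 of all genes were called. Of 144 calls among the gene lists, 130 held in every setting run. The median of all genes moved by less than 0.1 under each setting. Levels near those of olfactory receptor genes, as for Zbtb46 in macrophages and Runx3 in microglia, limit what a difference can show.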
